A study of Mus musculus with 4 samples.

Results

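The genes described here are 54 genes of the mitotic spindle, the kinetochore and the chromosome machinery of cell division, read in jejunal crypts of mice with and without the transcription factor Yy1. They were taken from a list of names that was chosen with earlier results of these data known. Each gene was represented by 1 probe set, which is a set of oligonucleotides designed to match transcripts of a gene. Some sets, with names ending in _s_at or _x_at, can match other transcripts as well. Of a gene's probe sets that were annotated to it alone, the one with the highest mean over all 4 arrays, on the log2 scale, was used. On the array 53 of the 54 were measured, out of 18193 genes in all, and for Ccnb1 no probe set annotated to it alone was used here.

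In the knockout mice both Yy1 alleles were floxed. They also had Vil-Cre-ERT2, a Cre recombinase that tamoxifen activates, under the Villin promoter, which is active in the intestinal epithelium and not in other tissues of the gut wall. Tamoxifen was given for 4 days. Yy1 knockout and control were compared with 2 arrays each, both on a background labelled C57BL/6J enriched and both from EDTA-isolated jejunal crypts. The titles call the replicates biological. The labels do not name the genotype of the control mice and do not settle if they were given tamoxifen, so effects of Cre-ERT2 or tamoxifen cannot be told apart from those of the Yy1 deletion.

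In mitosis the kinase Cdk1, bound to a cyclin, drives chromosome condensation and the building of the spindle. Kinetochores, protein assemblies on the centromeres, attach chromosomes to spindle microtubules, and the spindle checkpoint delays anaphase until all are attached. Kinesins and bundling proteins then separate the chromosomes and set up the cleavage of the cell. In the intestinal epithelium these genes are active in the stem cells and the transit-amplifying cells of the crypt, and they are shut off as cells mature and move onto the villus. Transcripts of many of them peak in G2 and M phase.

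Yy1 itself was lower with all 4 of its probe sets. Those that do not stand for the gene differed, on the log2 scale, by -4.31 ± 0.10, -3.03 ± 0.10 and -1.37 ± 0.11 SE (limma). The one that stands for the gene read 139.7 and 142 in the knockout arrays, against 1051 and 1006 in the control arrays (log2 difference -2.74 ± 0.09 SE, limma adjusted p = 0.000101). Its place relative to the floxed exons was not looked up. Median intensities of all probe sets lay between 139 and 143, and the median of 27 Bacillus control probe sets, a rough mark of background, between 31.9 and 35.6. Of 8 epithelial markers none was near that mark, and Cdx2 and Vil1 were called lower in the knockout arrays. The markers of other cells differed with genotype in part. Enterocyte markers summed to 39489 and 56379 in the knockout arrays, against 77286 and 75567 in the control arrays, with 7 of 11 lower. Stem cell markers summed to 7480 and 6950 in the knockout arrays, against 9274 and 9141 in the control arrays. The lower sum came from Olfm4, the 1 of 7 that was called lower. It read 3662 and 3332 in the knockout arrays, against 5463 and 5279 in the control arrays. The other 6 were not called, and Lgr5 was dim, at 63 and 60 in the knockout arrays and 69 and 66 in the control arrays. Tuft cell markers summed to 725 and 796 in the knockout arrays, against 1268 and 1131 in the control arrays, with 4 of 5 lower, and 2 of 6 goblet cell markers were lower. Immune markers summed to 8529 and 9398 in the knockout arrays and 9199 and 9527 in the control arrays, most of it from Lyz2, which was not called, while Ptprc and Cd3g were lower, 2 of 10. Mesenchymal and endothelial markers summed to 1457 and 1256 in the knockout arrays and 1536 and 1624 in the control arrays, and Pdgfra and Des were lower, 2 of 10. Of 4 Paneth cell and 6 enteroendocrine markers 1 each was higher. These marker counts are to be set beside the 13.4% called higher and 11.0% called lower among all 18193 genes. No marker was listed at the floor value of 1. A mark of RNA quality also moved with genotype for Gapdh, and by less for Actb. The Gapdh control probe set at the 3' end exceeded that at the 5' end, on the log2 scale, by 1.70 and 1.64 in the knockout arrays and 1.44 and 1.39 in the control arrays. For Actb this gap was 0.33 and 0.29 in the knockout arrays and 0.28 and 0.24 in the control arrays. The part of these differences in the results on mitotic genes was not tested.

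The mitotic genes were higher in the knockout crypts as a group, by a median of 0.78 on the log2 scale. Of the 53 measured genes 43 rose, 1 fell and 9 did not pass the test. Over all 18193 genes 13.4% were called higher and 11.0% lower, 24.4% in all, and the median difference was 0.01. Calls were made where the adjusted p from limma was below 0.05, on log2(intensity + 16), with Benjamini-Hochberg adjustment over all genes. Differences are knockout minus control, given ± SE from that fit (n = 2 arrays per group). The 43 rises ranged from Kif22 (log2 difference 0.42 ± 0.10 SE) to Bub1 (1.36 ± 0.13), with adjusted p between 0.000750 and 0.0238. In 51 of the 53 genes both knockout arrays lay above both control arrays, which was the case in 32.7% of all genes. In RNA from whole crypts, more dividing cells and more transcript per dividing cell cannot be told apart.

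**Figure D1:**
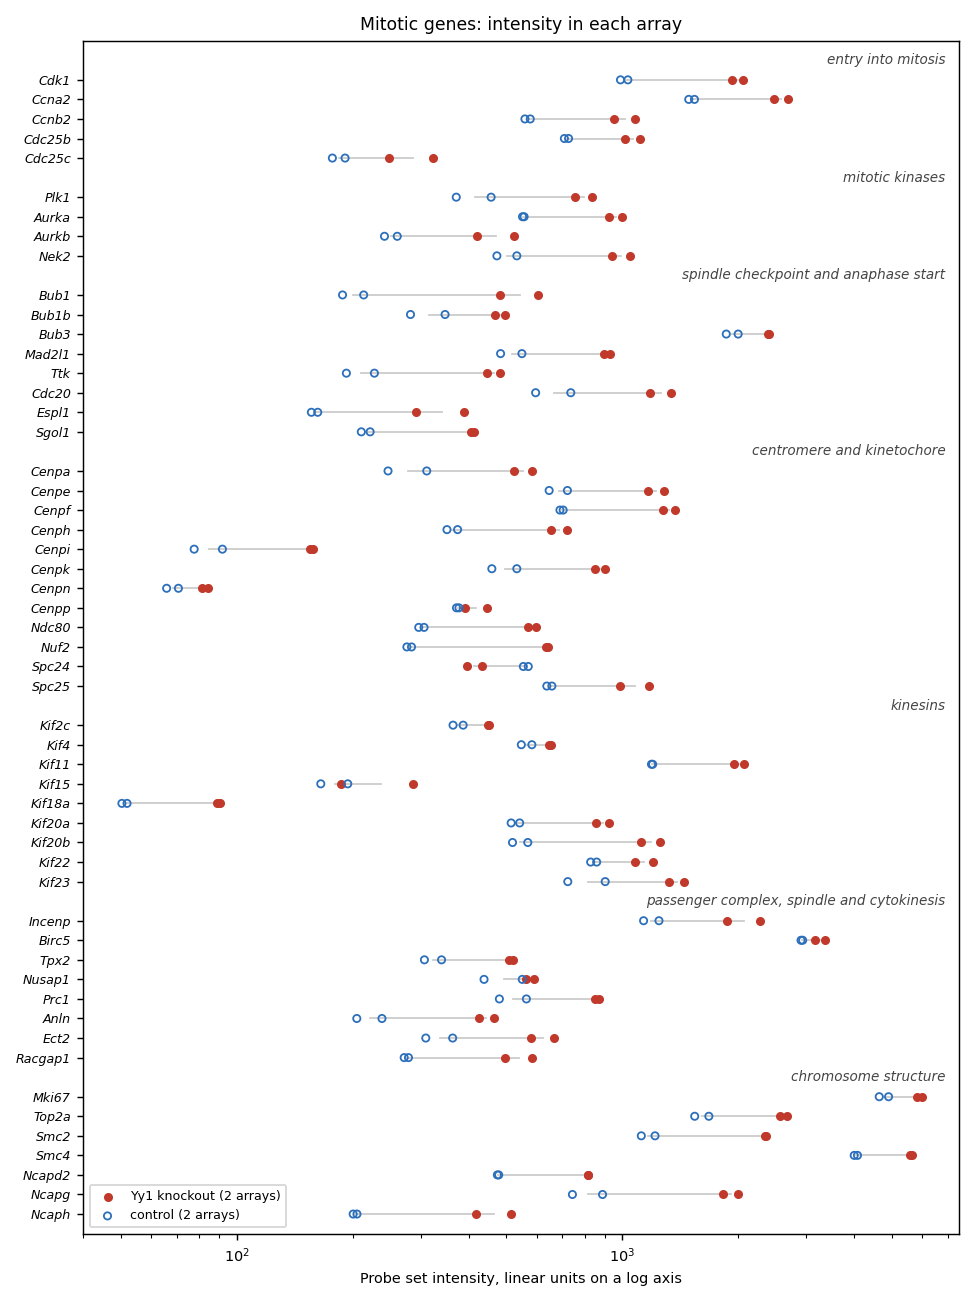
Intensity of each measured mitotic gene in each array, on a log axis, with Yy1 knockout arrays as filled points and control arrays as open points, and a grey line between the group means. Filled and open points are apart in all genes except Kif15, and Spc24 is the 1 gene with the knockout points on the left.

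The rise was seen in each knockout array. Set against the mean of the control arrays, the median mitotic gene was 0.84 higher in knockout replicate 1 and 0.73 higher in knockout replicate 2 on the log2 scale. The 2 control arrays lay at -0.02 and 0.02 of their own mean. With 1 array left out, between 39 and 44 of the 53 genes were called higher, while the share of all genes called higher lay between 6.36% and 12.7%.

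Genes that start mitosis rose together, 5 of 5 measured. Cdk1, the kinase at the centre of mitotic entry, read 1927 and 2060.1 in the knockout arrays, against 989.9 and 1034 in the control arrays (log2 difference 0.97 ± 0.10 SE, limma adjusted p = 0.00129). Both knockout arrays were near 2 times the controls. Its cyclin partner Ccnb2 had 1078 and 952 in the knockout arrays, against 577 and 559 in the control arrays (0.82 ± 0.11, adjusted p = 0.00266). Ccna2, the cyclin of S phase and G2, had 2694 and 2483, against 1488 and 1540.2 in the control arrays (0.77 ± 0.10, adjusted p = 0.00267). The groups were well apart for both cyclins. The phosphatases Cdc25b and Cdc25c, which switch Cdk1 on, rose by 0.56 ± 0.10 and 0.58 ± 0.14. The rise of Cdc25c rested on 1 of its 2 probe sets, since the other read 196 and 186 in the knockout arrays, against 170 and 204 in the control arrays (log2 difference 0.03 ± 0.12).

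All 4 mitotic kinases listed beside Cdk1 rose, by 0.78 to 0.96. Nek2, which parts the centrosomes, read 1047 and 940.3 in the knockout arrays and 473 and 533 in the control arrays (log2 difference 0.96 ± 0.11 SE, limma adjusted p = 0.00189). Plk1, the polo-like kinase of spindle and kinetochore, read 837 and 754 in the knockout arrays, against 371 and 457 in the control arrays (0.92 ± 0.13, adjusted p = 0.00327). Aurka, the Aurora kinase of the spindle poles, read 998 and 925, against 551 and 557 in the control arrays (0.78 ± 0.10, adjusted p = 0.00243). In all 3 the lower knockout array exceeded the higher control array by more than either group's own spread. Aurkb, the Aurora kinase of the inner centromere, rose by 0.86 ± 0.13.

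The spindle checkpoint and the genes that release the sister chromatids held the largest rise among the 53 genes. Bub1, a checkpoint kinase at the kinetochore, read 604 and 483 in the knockout arrays, against 213 and 188 in the control arrays, a 2.71-fold higher mean (log2 difference 1.36 ± 0.13 SE, limma adjusted p = 0.00113). Ttk, the kinase that starts checkpoint signalling, read 481 and 447 in the knockout arrays and 192 and 228 in the control arrays (1.09 ± 0.11, adjusted p = 0.00141). Sgol1, now named Sgo1, the shugoshin that guards centromeric cohesion, read 412 and 406 in the knockout arrays, against 210.4 and 222 in the control arrays (0.87 ± 0.10, adjusted p = 0.00161). The knockout arrays were near or above 2 times the controls in each. Espl1, the separase that cuts cohesin, rose by 1.01 ± 0.14, and Cdc20, the activator of the anaphase-promoting complex, by 0.91 ± 0.13. Other probe sets of Cdc20 gave 0.57 ± 0.11 and 0.63 ± 0.12, both called higher. The checkpoint proteins Mad2l1 and Bub1b rose by 0.81 ± 0.11 and 0.60 ± 0.12. Other probe sets of Bub1b gave 0.45 ± 0.12, which passed, and 0.08 ± 0.13, which did not. Bub3, the partner of Bub1 and Bub1b, did not pass, with 2407 and 2396 in the knockout arrays and 1999 and 1862 in the control arrays (0.31 ± 0.10, adjusted p = 0.0566, 95% interval 0.08 to 0.54). Another of its 5 probe sets was called higher, at 1256 and 1137 in the knockout arrays against 837 and 742 in the control arrays (0.59 ± 0.11).

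Of the 12 centromere and kinetochore genes, 9 rose, Spc24 fell, and Cenpn and Cenpp did not pass. The Ndc80 complex, which holds the microtubule, was split. Nuf2 read 642 and 636 in the knockout arrays, against 276 and 284 in the control arrays (log2 difference 1.14 ± 0.09 SE, limma adjusted p = 0.000750, the smallest of the 53 genes). Ndc80 had 599 and 571 in the knockout arrays and 296 and 306 in the control arrays (0.92 ± 0.10, adjusted p = 0.00138), and Spc25 rose by 0.72 ± 0.11. Spc24, which pairs with Spc25 in the stalk of the complex, went the other way. It read 433 and 395 in the knockout arrays, against 554 and 571 in the control arrays (-0.43 ± 0.10, adjusted p = 0.0204). Relative to the mean of its 3 partners within each array, and with the control mean at 0, Spc24 lay at -1.35 and -1.37 in the knockout arrays. It had 1 probe set, and its fall missed the threshold without knockout replicate 2 (adjusted p = 0.0660), without control replicate 1 (0.0879) and without control replicate 2 (0.118), with the same direction in each.

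The centromere proteins proper rose with 2 exceptions. Cenpf, a large protein of the outer kinetochore, read 1372 and 1279 in the knockout arrays and 689 and 703 in the control arrays (log2 difference 0.91 ± 0.10 SE, limma adjusted p = 0.00150). Cenpa, the histone H3 variant that marks the centromere, rose by 0.96 ± 0.13. Its other probe sets gave 0.49 ± 0.10 and 0.44 ± 0.13, both called higher. Cenpe, a kinesin that carries chromosomes to the spindle equator, rose by 0.83 ± 0.11. Cenph, Cenpi and Cenpk, neighbours in the inner kinetochore, rose to a like extent, by 0.89 ± 0.10, 0.78 ± 0.11 and 0.80 ± 0.11. Cenpn, which binds the Cenpa nucleosome, was dim at 81.3 and 84.0 in the knockout arrays and 70.5 and 65.7 in the control arrays (0.23 ± 0.10, adjusted p = 0.137). Cenpp had 445 and 391 in the knockout arrays, against 377 and 372 in the control arrays (0.15 ± 0.10, adjusted p = 0.370). For both, each knockout array was above each control array by a small margin.

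Kinesins, the motors that slide, shorten or travel along spindle microtubules, were mixed, with 6 of 9 higher. Kif20b, a motor of late cytokinesis, read 1254 and 1121 in the knockout arrays, against 569 and 519 in the control arrays (log2 difference 1.10 ± 0.11 SE, limma adjusted p = 0.00114), and all 4 of its probe sets were called higher. Kif11, which pushes the spindle poles apart, had 2069.8 and 1946 in the knockout arrays and 1191 and 1199.8 in the control arrays (0.74 ± 0.10, adjusted p = 0.00269). Kif20a, which brings the passenger complex to the midzone, had 927 and 855, against 542 and 515 in the control arrays (0.73 ± 0.10, adjusted p = 0.00313). In these both knockout arrays stood clear of the controls. Kif23, Kif18a and Kif22 rose by 0.76 ± 0.13, 0.66 ± 0.09 and 0.42 ± 0.10. The size for Kif22 depended on the probe set, since its other ones gave 0.67 ± 0.10 and 0.66 ± 0.10, both called higher. The microtubule-shortening Kif2c (0.25 ± 0.10, adjusted p = 0.104), the chromosome-bound Kif4 (0.20 ± 0.10, adjusted p = 0.194) and Kif15 did not pass. Kif15, a second pole-separating motor, was the 1 mitotic gene whose groups overlapped, at 287 and 186 in the knockout arrays and 194 and 165 in the control arrays (0.34 ± 0.19, 95% interval -0.11 to 0.79). It passed without knockout replicate 2 (0.64, adjusted p = 0.0200). Kif2c had 449 and 451 in the knockout arrays against 364 and 387 in the control arrays, and 1 of its 4 probe sets was called higher (0.44 ± 0.10). Kif4 had 646 and 655 in the knockout arrays against 547 and 583 in the control arrays.

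**Figure D2:**
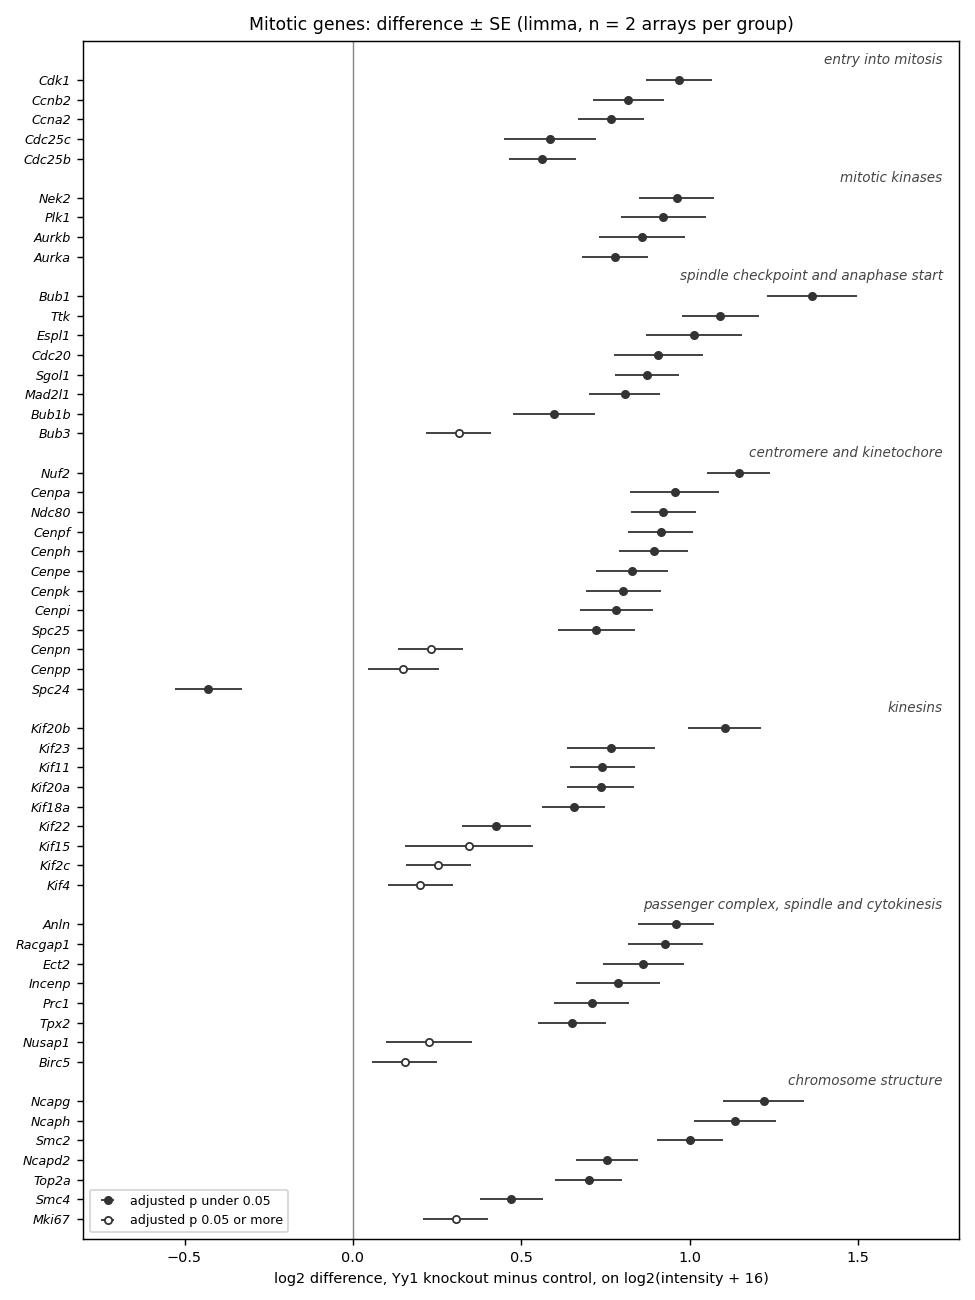
log2 difference of each mitotic gene, Yy1 knockout minus control, with SE bars from limma, sorted within each role. Filled points passed an adjusted p of 0.05. The points of 52 genes lie right of 0, and Spc24 lies at -0.43.

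The passenger complex, the spindle proteins and the cytokinesis genes rose in 6 of 8 cases. Anln, a scaffold of the contractile ring, read 425 and 464 in the knockout arrays, against 205 and 238 in the control arrays (log2 difference 0.96 ± 0.11 SE, limma adjusted p = 0.00200). Racgap1, which with the kinesin Kif23 forms centralspindlin, had 582 and 497 in the knockout arrays and 272 and 279 in the control arrays (0.93 ± 0.11, adjusted p = 0.00210). Ect2, the exchange factor that centralspindlin recruits to activate RhoA, had 666 and 581, against 363 and 309 in the control arrays (0.86 ± 0.12, adjusted p = 0.00350). These 3 genes of the cleavage furrow thus rose alongside Kif23. Incenp, the scaffold of the passenger complex, rose by 0.79 ± 0.12, with 2 of its 5 probe sets called. The microtubule crosslinker Prc1 rose by 0.71 ± 0.11, and Tpx2, the activator of Aurora A, by 0.65 ± 0.10. Birc5, the survivin subunit of the passenger complex, did not pass, with 3351 and 3163 in the knockout arrays and 2939.8 and 2911 in the control arrays (0.15 ± 0.10, adjusted p = 0.313, 95% interval -0.07 to 0.38). Against the mean of Incenp and Aurkb within each array, with the control mean at 0, Birc5 lay at -0.77 and -0.56 in the knockout arrays. The microtubule-bundling Nusap1 had 564 and 590.4 in the knockout arrays and 438 and 550.4 in the control arrays (0.23 ± 0.13, adjusted p = 0.264), where the controls themselves lay far apart.

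All 5 genes of condensin I, the ring complex that compacts mitotic chromosomes, rose. Ncapg read 1999 and 1829.9 in the knockout arrays, against 743 and 889 in the control arrays, a 2.35-fold higher mean (log2 difference 1.22 ± 0.12 SE, limma adjusted p = 0.00116). Ncaph had 514 and 418 in the knockout arrays and 205 and 200.4 in the control arrays (1.13 ± 0.12, adjusted p = 0.00152), and Smc2 had 2362 and 2343, against 1121 and 1217 in the control arrays (1.001 ± 0.10, adjusted p = 0.00114), with all 5 of its probe sets called higher. Each of these was above 2-fold in the ratio of means. Ncapd2 rose by 0.75 ± 0.09 and Smc4 by 0.47 ± 0.09. The size for Smc4 depended on the probe set, since 2 dimmer ones gave 0.32 ± 0.11, which did not pass, and 0.84 ± 0.11, which did. Top2a, the topoisomerase that untangles sister chromatids, rose by 0.70 ± 0.10.

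Mki67, the Ki-67 protein that coats mitotic chromosomes and a common marker of dividing cells, read 5820.5 and 5995 in the knockout arrays, against 4646 and 4912 in the control arrays, a 1.24-fold higher mean that did not pass (log2 difference 0.31 ± 0.10 SE, limma adjusted p = 0.0597, 95% interval 0.08 to 0.53). Both knockout arrays were above both controls. Relative to Top2a within each array, with the control mean at 0, Mki67 lay at -0.39 and -0.40 in the knockout arrays. Mki67 and Bub3 both passed under 5 other settings, namely a pseudocount of 64, quantile normalization, a trended and robust prior, the mean of a gene's probe sets and a filter on low values, with adjusted p for Mki67 between 0.00450 and 0.0462.

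Several probe sets of a gene mostly gave the same direction. The 53 genes had 118 probe sets, and 36 genes had more than 1. Of the 65 probe sets that did not stand for their gene, 37 were called higher and 0 lower by limma over all 34945 probe sets, of which 23.5% were called, 13.0% higher and 10.5% lower. Of 46 with a mean intensity of at least 100, 32 were called, and of 19 dimmer ones 5. Among the 31 rising genes with several probe sets, 25 had another one called higher, and 6 had none: Anln, Aurka, Cdc25c, Cenpk, Ncapd2 and Spc25. When each gene was read from its dimmest probe set instead, 29 of the 53 rose (54.7%), beside 9.64% of all genes under the same choice. Without probe sets named _s_at or _x_at, 82.7% of the 52 mitotic genes still measured rose, beside 13.4% of all genes.

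**Figure D3:**
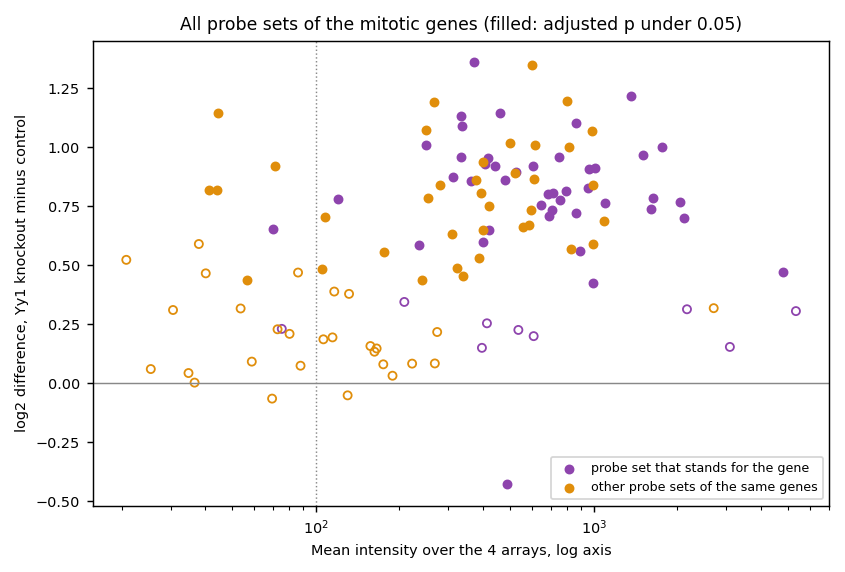
All 118 probe sets of the mitotic genes, with the mean intensity over the 4 arrays on a log x axis and the log2 difference, Yy1 knockout minus control, on the y axis. Filled points passed an adjusted p of 0.05 over all probe sets, the dotted line marks an intensity of 100, and the single filled point below 0 is Spc24.

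Other genes of the mitotic machinery were described from 5 further lists. Of 98 measured genes in them, 60 rose and 2 fell, with a median log2 difference of 0.48. These numbers are to be set beside the 13.4% higher and 11.0% lower among all genes, whether any list differs from the 53 genes was not tested, and the calls moved with single arrays: 39 rose without control replicate 2 and 41 without control replicate 1.

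Further kinetochore genes rose in 20 of 29 cases. Cenpq, a partner of Cenpp in the inner kinetochore, read 550.02 and 486 in the knockout arrays, against 194 and 195 in the control arrays (log2 difference 1.34 ± 0.10 SE, limma adjusted p = 0.000634). Trip13, an ATPase that recycles Mad2, had 2315 and 1998 in the knockout arrays and 1054 and 987 in the control arrays (1.06 ± 0.11, adjusted p = 0.00141). Cenpw, a histone-fold protein of the centromere, had 861 and 769 in the knockout arrays and 409 and 414 in the control arrays (0.96 ± 0.10, adjusted p = 0.00152). In all 3 the knockout arrays were near or above 2 times the controls. Cenpx fell, to 131 and 163 in the knockout arrays, against 231 and 222 in the control arrays (-0.58 ± 0.12, adjusted p = 0.0134). Its call was lost without knockout replicate 1 (adjusted p = 0.0515), control replicate 1 (0.0755) and control replicate 2 (0.0601), with the same direction in each. Without control replicate 2, 13 of this list rose.

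Other spindle and cytokinesis genes rose in 13 of 19 cases. Ckap2, a spindle-associated protein, read 578 and 505 in the knockout arrays, against 184 and 207 in the control arrays (log2 difference 1.40 ± 0.11 SE, limma adjusted p = 0.000729). Depdc1a had 129 and 130.2 in the knockout arrays and 58.2 in each control array (0.98 ± 0.09, adjusted p = 0.00107). Hmmr, a spindle-pole protein, had 503 and 511 in the knockout arrays and 269 and 256 in the control arrays (0.91 ± 0.09, adjusted p = 0.00138). In each of them the groups lay far apart. Of 13 further regulators of mitotic entry 6 rose. The kinase Pbk had 1769.5 and 1601 in the knockout arrays and 791 and 785 in the control arrays (1.08 ± 0.10, adjusted p = 0.00101). The Cdk1-binding Cks1b had 3884 and 3714 in the knockout arrays and 1790.5 and 1889.6 in the control arrays (1.04 ± 0.10, adjusted p = 0.00101). All 4 knockout readings were near or above 2 times those of the controls. Ccnf, a cyclin that serves as a ubiquitin ligase subunit, had 209 and 224 in the knockout arrays and 103 and 111 in the control arrays (0.92 ± 0.10, adjusted p = 0.00160). Wee1 and Pkmyt1, which hold Cdk1 inactive, did not pass, at -0.16 and -0.12.

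The anaphase-promoting complex marks cyclins and securin for destruction. Its list also held cofactors, the inhibitor Fbxo5 and securin itself, Pttg1. Of this list 14 of 19 genes were higher, Fbxo5 and Pttg1 among them, with a median of 0.44. Anapc1 was counted as higher, though of its 5 probe sets 1 was called higher and 1 lower. Anapc11 passed narrowly (limma adjusted p = 0.0498), and 0 of its 3 probe sets were called in the fit over all probe sets. Anapc15 had 1947 and 1885 in the knockout arrays and 1258 and 1201 in the control arrays (0.63 ± 0.10, adjusted p = 0.00443). Cdc27 had 1489 and 1487 in the knockout arrays and 919 and 1001 in the control arrays (0.62 ± 0.10, adjusted p = 0.00517). The ubiquitin-conjugating Ube2c had 2437 and 2692 in the knockout arrays and 1409.8 and 1665 in the control arrays (0.74 ± 0.12, adjusted p = 0.00558). These were the 3 with the smallest p, and in each the groups were apart. The count was 4 without control replicate 2, 6 without control replicate 1 and 6 without knockout replicate 1. Of 18 cohesin and condensin II genes 7 rose. Sgo2a, a shugoshin, had 379.6 and 301 in the knockout arrays and 176 and 169.5 in the control arrays (0.91 ± 0.13, adjusted p = 0.00340). Cdca5, the sororin that stabilises cohesin, had 739.9 and 585 in the knockout arrays and 361 and 302 in the control arrays (0.96 ± 0.14, adjusted p = 0.00424). Both were higher in knockout replicate 1 than in knockout replicate 2. Smc3, a subunit of the cohesin ring, had 1206 and 1159 in the knockout arrays and 783 and 735 in the control arrays (0.63 ± 0.10, adjusted p = 0.00484). Condensin II, the sister complex of condensin I, was split. Ncapg2 rose by 0.66 ± 0.11. Ncaph2 stood at 0.23 ± 0.10 (limma adjusted p = 0.152), with 1 of its 4 probe sets called higher. Ncapd3 fell to 603 and 739 in the knockout arrays, against 1211 and 988 in the control arrays (-0.70 ± 0.14, limma adjusted p = 0.0129). The fall of Ncapd3 was not seen throughout its 3 probe sets, of which 1 was called lower and 1 higher, and the call was lost without knockout replicate 1 (adjusted p = 0.0603) and without control replicate 1 (0.0774).

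**Figure D4:**
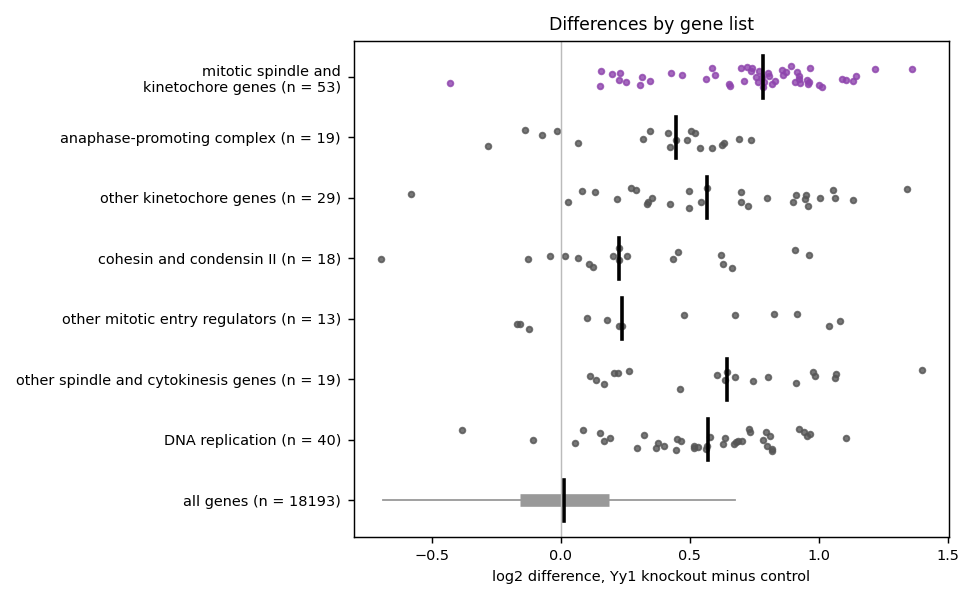
log2 differences, Yy1 knockout minus control, of single genes in the mitotic list, 5 lists of other mitotic genes and the DNA replication list, with a black bar at each median. For all 18193 genes the thick bar spans the 25th to 75th percentile and the thin line the 5th to 95th percentile, from -0.69 to 0.68. The mitotic median lies at 0.78 and the replication median at 0.57.

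Genes of DNA replication, active earlier in the cycle, were also higher, with 27 of 40 called higher and Orc3 lower, and a median of 0.57. Mcm4, a subunit of the replicative helicase, had 1841 and 1565 in the knockout arrays and 806 and 758 in the control arrays (1.10 ± 0.11, adjusted p = 0.00138). Mcm7, of the same helicase, had 4091 and 3962 in the knockout arrays and 2216 and 2344 in the control arrays (0.82 ± 0.10, adjusted p = 0.00202). Rpa2, of the single-strand binding complex, had 1308 and 1273 in the knockout arrays and 751 and 706 in the control arrays (0.81 ± 0.10, adjusted p = 0.00208). Orc3, of the origin recognition complex, had 585 in each knockout array, against 757 and 779 in the control arrays (-0.38 ± 0.09, adjusted p = 0.0250), and its call was lost in each fit with 1 array left out. The shares called higher were 81.1% of the mitotic genes and 67.5% of the replication genes. Whether the lists differ was not tested.

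Promoter letters were compared to see what the mitotic genes share beyond their names. RefSeq windows of the build GRCm38.p6, from 250 bases before to 50 bases after the start, were held for 45 of the 53 genes and for 14452 measured genes. Only the first listed window of each gene was searched, so letters at any other listed start were not counted. The CHR element, a site of cell cycle promoters, was searched as TTTGAA or TTTAAA on both strands, and CCAAT, the box bound by NF-Y, likewise. CHR letters were in 32 of 45 windows (71.1%), against 5 of 33 replication windows (15.2%) and 21.5% of all. CCAAT was in 73.3% of the mitotic windows, 60.6% of the replication windows and 38.2% of all, and both kinds together were in 57.8%, 12.1% and 8.54%. E2F letters (TTCCCGC or TTGGCGC) were in 22.2% of the mitotic windows, 54.5% of the replication windows and 10.3% of all. The YY1 core letters CCATNTT were in 17.8% of the mitotic windows, 15.2% of the replication windows and 14.7% of all. The longer AAGATGG is also a match of the core on the other strand. It was in 1 mitotic window, that of Kif15 (2.22%), in 12.1% of the replication windows and in 6.62% of all. In the mitotic windows CHR letters shared bases with the YY1 core in 3 cases and CCAAT with E2F letters in 1.

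Windows of 7 genes show how these letters lie, 5′ to 3′ on the strand of the gene, with CHR and CCAAT letters of either strand in capitals. Bub1 is shown for its largest rise, Smc2, Ncapg, Cdk1 and Ttk as the risers with the smallest p that hold both kinds, and Mki67 and Birc5 as genes that did not pass.
Bub1 (chr2:127831810-127832109, minus strand): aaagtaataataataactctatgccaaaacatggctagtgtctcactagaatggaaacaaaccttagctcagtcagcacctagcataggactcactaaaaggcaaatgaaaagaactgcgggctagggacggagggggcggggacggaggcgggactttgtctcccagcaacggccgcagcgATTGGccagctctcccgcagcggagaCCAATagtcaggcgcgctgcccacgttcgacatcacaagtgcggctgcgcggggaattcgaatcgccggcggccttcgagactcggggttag
Smc2 (chr4:52438971-52439270, plus strand): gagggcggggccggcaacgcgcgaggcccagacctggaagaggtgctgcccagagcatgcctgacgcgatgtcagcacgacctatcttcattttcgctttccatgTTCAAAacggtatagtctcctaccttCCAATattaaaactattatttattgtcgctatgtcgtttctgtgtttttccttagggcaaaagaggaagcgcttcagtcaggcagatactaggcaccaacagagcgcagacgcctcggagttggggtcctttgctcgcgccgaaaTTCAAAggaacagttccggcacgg
Ncapg (chr5:45669675-45669974, plus strand): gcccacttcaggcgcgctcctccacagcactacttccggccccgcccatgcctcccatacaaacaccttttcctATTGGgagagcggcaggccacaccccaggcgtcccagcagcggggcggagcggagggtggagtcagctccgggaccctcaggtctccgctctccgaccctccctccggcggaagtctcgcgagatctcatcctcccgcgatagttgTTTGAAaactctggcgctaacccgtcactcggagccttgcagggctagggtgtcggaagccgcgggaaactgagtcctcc
Cdk1 (chr10:69352863-69353162, minus strand): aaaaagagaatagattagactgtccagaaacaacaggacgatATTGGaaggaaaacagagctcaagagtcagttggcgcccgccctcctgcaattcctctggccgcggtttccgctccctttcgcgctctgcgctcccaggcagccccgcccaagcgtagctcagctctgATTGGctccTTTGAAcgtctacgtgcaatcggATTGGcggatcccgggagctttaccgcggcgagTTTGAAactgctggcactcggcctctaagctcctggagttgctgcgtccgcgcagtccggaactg
Ttk (chr9:83834439-83834738, plus strand): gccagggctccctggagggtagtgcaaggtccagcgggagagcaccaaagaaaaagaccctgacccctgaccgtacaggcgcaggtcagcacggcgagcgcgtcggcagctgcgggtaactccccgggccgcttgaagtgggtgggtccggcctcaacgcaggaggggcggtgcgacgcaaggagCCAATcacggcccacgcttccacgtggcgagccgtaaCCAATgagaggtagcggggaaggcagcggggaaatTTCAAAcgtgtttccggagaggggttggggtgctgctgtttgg
Mki67 (chr7:135716330-135716629, minus strand): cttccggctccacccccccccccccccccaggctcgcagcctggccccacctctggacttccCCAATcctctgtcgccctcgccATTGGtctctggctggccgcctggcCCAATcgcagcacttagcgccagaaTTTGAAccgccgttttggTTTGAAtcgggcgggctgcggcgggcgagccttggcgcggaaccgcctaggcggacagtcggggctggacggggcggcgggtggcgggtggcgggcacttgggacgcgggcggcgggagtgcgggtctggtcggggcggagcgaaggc
Birc5 (chr11:117848987-117849286, plus strand): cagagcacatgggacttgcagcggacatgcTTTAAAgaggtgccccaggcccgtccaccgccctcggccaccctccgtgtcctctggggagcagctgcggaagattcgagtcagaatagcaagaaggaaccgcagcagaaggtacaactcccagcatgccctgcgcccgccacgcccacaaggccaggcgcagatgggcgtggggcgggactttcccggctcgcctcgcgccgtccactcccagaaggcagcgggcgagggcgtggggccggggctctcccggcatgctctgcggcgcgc
In Cdk1 the CHR letters nearest the start begin 15 bases before it, in Ncapg 30 bases before it and in Ttk 8 bases after it. In Mki67 the nearest begin 98 bases before the start, while Birc5 holds 1 match, 220 bases before it, and Bub1 holds 2 CCAAT matches and no CHR letters in this window. Among the mitotic genes the median log2 difference was 0.80 for the 32 with CHR letters and 0.81 for the 13 without. For CCAAT these medians were 0.82 for 33 genes with and 0.73 for 12 without, and for the YY1 core letters 0.92 for 8 genes with and 0.80 for 37 without. Matches are letters only and do not show binding.

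**Figure D5:**
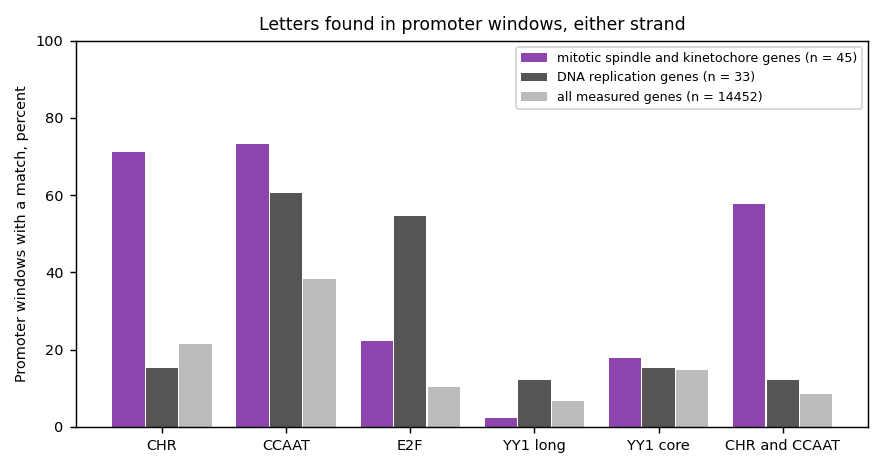
Share of promoter windows with a match, in percent, for 45 mitotic genes, 33 DNA replication genes and 14452 measured genes. YY1 long stands for AAGATGG and YY1 core for CCATNTT. CHR letters are in 71.1% of the mitotic windows, 15.2% of the replication windows and 21.5% of all.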

How the data were processed

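The authors deposited 1 linear intensity per probe set and array. Per the labels' protocols, total RNA carried a biotin label and Affymetrix arrays were used. The summary method and normalization are not given in the sources used here. Of 45101 probe sets, 34945 had 1 gene in GEO's platform annotation, 932 had several, 9160 had none listed and 64 were array controls. Symbols were updated through a RefSeq table of GRCm38.p6. For each gene the probe set whose mean log2(intensity + 16) was highest was kept. Groups came from the titles. The test was limma 3.58.1 under R 4.3.3, by eBayes after lmFit without a block (7.05 total degrees of freedom), and p-values were adjusted by Benjamini-Hochberg over 18193 genes. Differences on the log2(intensity + 16) scale understate the change of dim genes. The number of arrays, 2 per group, limits the precision. No sources say that replicates came from separate mice beyond calling them biological.

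The mitotic genes and all other lists were chosen with earlier results of these data known. Genes given with values by array were the 3 called with the smallest p in each role, Mki67, any called lower and those not called, and from other lists the 3 called with the smallest p. Any other gene was named with its values already in view. The tests were also run on simulated data with known differences, in which fewer genes differed than were called here. There 22.5% of 1.5-fold, 90.5% of 2-fold and 99.7% of 4-fold differences were recovered. A gene that did not pass may thus still differ by a small fold. With fewer genes differing, the adjustment was stricter in the simulated data, so these shares need not hold for the real arrays. Alternatives were other pseudocounts (1 and 64), median scaling, quantile normalization, a minimum mean intensity of 100, and other probe sets. Those were the dimmest, the mean of a gene's probe sets, and the brightest without names ending in _s_at or _x_at. Further alternatives were a trended and robust prior, the replicate number as a block, and each array left out. The choice by the mean of linear intensity was added after seeing the data.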

Additional observations from a re-analysis of the deposited data

How the results depend on the processing

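Across the 15 alternatives, 42 of the 43 rising mitotic genes kept a positive difference, the exception being Ncapd2 at -0.066 with the dimmest probe set, and 26 of the 43 were called higher in every alternative that measured them. Cenpp, not called before, turned to -0.052 with the dimmest probe set. With that choice the mitotic median was 0.59, and 6 genes of the anaphase-promoting complex list and 12 other kinetochore genes were higher. Lower calls were then 0 in the cohesin and condensin II list, 0 in replication and 1 among all other mitotic genes. With the mean of a gene's probe sets the mitotic median was 0.67, with 0 lower calls in cohesin and condensin II and 1 among the other mitotic genes. With 1 array left out, called mitotic genes ranged from 39 to 44 higher and from 0 to 1 lower, the count of all genes called higher from 1157 to 2307 and of all genes called lower from 1040 to 2059, and the other mitotic genes from 39 to 56 higher and from 0 to 2 lower. In the same fits the anaphase-promoting complex ranged from 4 to 11 higher, other kinetochore genes from 13 to 19 higher and 0 to 1 lower, cohesin and condensin II from 4 to 7 higher and 0 to 1 lower, and replication genes from 19 to 29 higher with 0 lower. A lone array was assumed to vary like the other group.

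The replicate numbers alone do not pair the arrays. With the replicate number as a block, 43 mitotic genes were higher and 1 lower, the same calls as without it, with 2662 of all genes called higher and 2219 of all genes called lower, against 2445 and 1994 without it. Same-numbered arrays' deviations correlated at 0.097 across genes.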

Other observations

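The 2 knockout arrays differed in degree. In 43 of the 53 mitotic genes the reading was higher in knockout replicate 1 than in knockout replicate 2, with a median log2 difference of 0.11 between them, while control replicate 1 was above control replicate 2 in 18 of the 53 (median -0.04). Enterocyte markers summed to 39489 in knockout replicate 1 and 56379 in knockout replicate 2. The largest difference between the knockout arrays was that of Kif15, 0.59 on the log2 scale, and between the controls that of Nusap1, 0.32. Neither gene was called.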
